A study of Mus musculus with 2 samples.

Results

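Keratins are the proteins of epithelial intermediate filaments. The 10 genes described here, of 32285 listed in each count matrix, were chosen by symbol: Krt7, Krt8, Krt18 and Krt19, known from simple epithelium, and Krt5, Krt6a, Krt13, Krt14, Krt15 and Krt17, known from stratified epithelium. A filament is built from pairs of 1 type I and 1 type II chain, so a cell needs both types. Krt5, Krt6a, Krt7 and Krt8 encode type II chains, and Krt13, Krt14, Krt15, Krt17, Krt18 and Krt19 encode type I chains. Krt8 with Krt18 is the pair of simple epithelia such as the lining of the uterus, Krt5 with Krt14 that of basal cells in stratified epithelia, and Krt6a and Krt17 are known for their induction in stressed or injured epithelium. Mesothelium, the serosal cover of organs, also carries simple keratins, whereas the uterine stroma is known for vimentin.

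The cells came from whole uteri of female mice aged 6 months, digested for 5 h and profiled by droplet-based sequencing of transcript 3′ ends. The control library was titled Prickle1 f/f, a floxed genotype, and the conditional knockout (cKO) library Prickle1 f/f Ltf-cre, in which regulatory sequence of the lactoferrin gene Ltf, known for its activity in uterine epithelium, drives Cre. Both carried the floxed Prickle1 alleles. Each library pooled 3 mice, so there was 1 library per group, in which an effect of genotype cannot be told apart from one of the animals, the digestion or the library. No test between groups was possible, and every interval below is a 95% interval that covers counting error only.

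Cells were barcodes with at least 500 genes and at most 20% mitochondrial counts: 3653 in control, with a median of 4650 unique molecular identifiers (UMIs, the counted molecules), and 4950 in cKO, with a median of 5944. The libraries shared 5 cell barcodes. A genotype entry in the labels calls both samples wild-type, against the titles. Levels are given as CPM, a gene's UMIs scaled to a fixed total of UMIs over the cells of a gate. Among Epcam-positive cells Prickle1 was higher in the library titled as knockout, at 0.879 CPM (0.502 to 1.43, 16 UMIs) in control and 4.28 CPM (2.58 to 6.69, 19 UMIs) in cKO. In those with mostly epithelial adhesion genes, as defined below, it stood at 0.686 CPM (0.355 to 1.20, 12 UMIs) and 1.25 CPM (0.258 to 3.66, 3 UMIs). Of the 19 UMIs in cKO, 14 lay in Epcam-positive cells with mostly mesothelial genes. Over all cells Prickle1 stood at 2.65 CPM in control and 8.24 CPM in cKO. Since the deleted part of the gene was not given, these 3′ counts do not check the genotype. Ltf stood at 1504 and 113 CPM in Epcam-positive cells, and at 1565 and 209 CPM in those with mostly adhesion genes.

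The genes lie in the keratin clusters of chromosomes 11 and 15 (GRCm38, GENCODE M21). Krt13, Krt15, Krt19, Krt14 and Krt17 span positions 100117327 to 100261029 of chromosome 11. Krt7, Krt6a, Krt5, Krt8 and Krt18 span 101411043 to 102032027 of chromosome 15, and Krt18 is the type I gene next to its partner Krt8 among the type II genes. The gene models of Krt5, Krt6a, Krt7 and Krt8 overlap other annotated genes, so reads in the overlaps could have been lost or misassigned. Krt6a also has a close copy, Krt6b.

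Cells were gated by 1 gene each. Epcam, an epithelial adhesion protein, with Ptprc, the leukocyte antigen CD45, at 0 gave 998 control cells (27.3% of cells) and 130 cKO cells (2.63%). The median depth of these cells was 6459.5 UMIs in control and 17410.5 in cKO. The cKO cells under this gate were a mixture, and this touches each level below. More UMIs of the epithelial adhesion genes Cdh1, Cldn3, Cldn4 and Cldn7 than of the mesothelial genes Msln, Upk3b and Lrrn4 were found in 947 of 998 control cells (94.9%) but in 54 of 130 cKO cells (41.5%). The mesothelial genes had the majority in 24 control cells (2.40%) and 47 cKO cells (36.2%), and neither set in 27 and 29 cells. The summed CPM of 8 mesothelial markers was 39.5 in control and 629 in cKO over all Epcam-positive cells, and that of 7 stromal markers 492 and 4870. Keratin values are therefore given for the whole gate and for its parts, which are called here the adhesion-gene, mesothelial-gene and neither parts and were defined after the data were seen.

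The simple keratins were detected in most Epcam-positive cells of control. Krt8 gave 77422 UMIs in control and 13183 in cKO, or 4251 CPM (4222 to 4282) against 2971 CPM (2921 to 3022). Its partner Krt18 stood at 1816 CPM in control and 1169 CPM in cKO. Krt7, a type II chain of ducts and glands, stood at 1499 and 676 CPM. Krt19, the small type I chain of simple epithelia, stood at 1677 and 630.1 CPM. All were thus lower in the cKO gate, by 0.52 for Krt8, 0.64 for Krt18, 1.15 for Krt7 and 1.41 for Krt19 on the log2 scale. The median log2 ratio over all genes tested in this gate was 0.45.

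**Figure D1:**
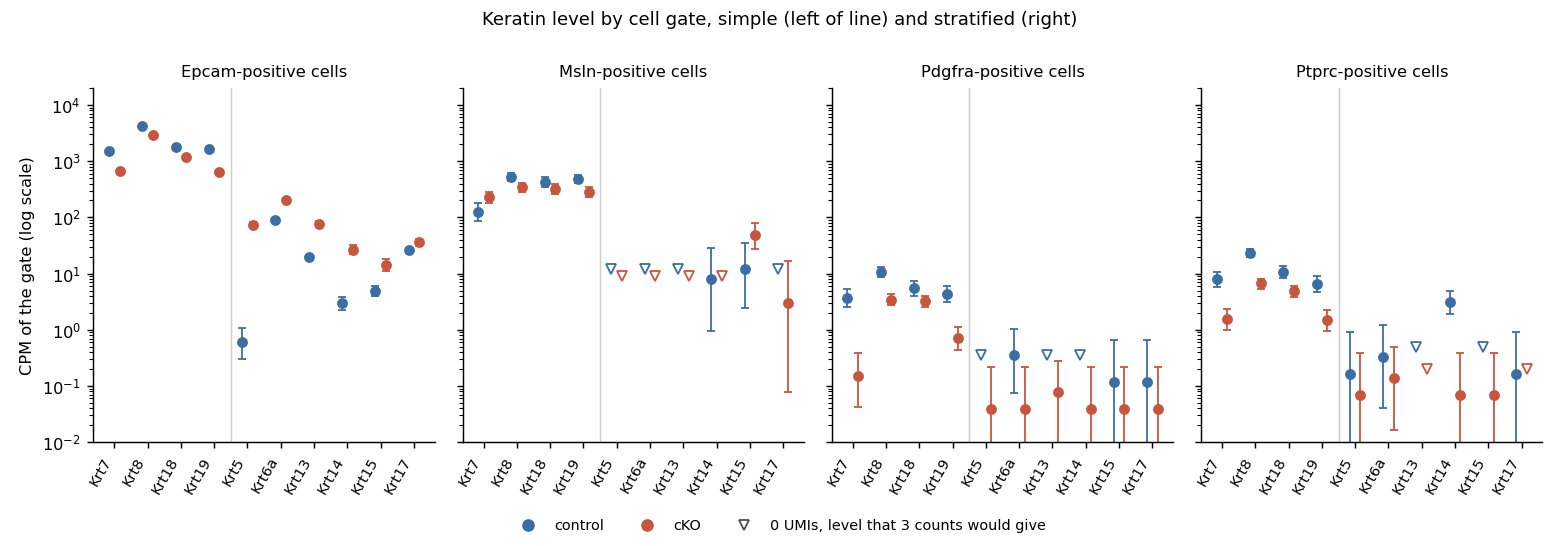
Level of each keratin in CPM (log axis) in 4 cell gates, control in blue and cKO in red. Points are 1 library each, bars are 95% Poisson intervals, and triangles mark the level of 3 counts where no UMI was seen; simple keratins (left of each line) stand at or above 126 CPM in Epcam- and Msln-positive cells and at or below 23.3 CPM in Pdgfra- and Ptprc-positive cells.

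The summed level was close between the libraries where adhesion genes had the majority. The median depth of this part was 6409 UMIs in control and 25291 in cKO, and the part of depth in these levels was not tested. Markers of other cells differed there too: the 7 stromal markers summed to 115 and 276 CPM, the 5 smooth muscle markers to 34.0 and 61.8 CPM, the 5 endothelial markers to 5.38 and 20.05 CPM and the 8 leukocyte markers to 185 and 117 CPM. The 4 glandular markers summed to 1.49 and 27.1 CPM, and 1 cKO cell held the 53 UMIs of Prss29 that gave 22.1 CPM of it. The gland factor gene Foxa2 was in 15 of 947 and 5 of 54 cells. The part of these in the keratin values was not tested. There the 10 keratins summed to 9722 CPM in 947 control cells and 9587 CPM in 54 cKO cells, a ratio of 0.986 (0.973 to 1.00). Krt8 stood at 4403 and 4897 CPM, a log2 ratio of 0.15 that turned negative under the TMM scaling, which shifts all genes of this part by -0.30. Krt18 stood at 1879 and 1849 CPM, a ratio of 0.984 (0.953 to 1.02). Krt7 stood at 1558 and 1176 CPM, a log2 ratio of -0.41. Krt19 was the simple keratin that differed most, at 1736 and 901 CPM, a log2 ratio of -0.95 (-1.01 to -0.88). In cells of at least 10000 UMIs, Krt8 stood at 4701 and 4965 CPM and Krt18 at 1929 and 1854 CPM. Krt7 stood at 1595 and 1184 CPM in them and Krt19 at 1805 and 913 CPM. Among 505 control and 9 cKO cells of 2000 to 10000 UMIs, Krt8 stood at 2604 and 1632 CPM and Krt18 at 1593 and 1546. In that band Krt7 stood at 1332 and 837 CPM and Krt19 at 1325 and 344 CPM. The log2 ratio of Krt19 over all cells of the part was -0.95 as a mean over cells, -0.78 with each cell thinned to 1000 UMIs and -0.94 without the cell richest in it in each library. Single cells overlapped: the middle 50% of cells ran from 512 to 2113 CPM of Krt19 in control and from 337 to 1014 CPM in cKO.

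In the summed UMIs of the mesothelial-gene part the libraries did not differ beyond counting error in any of the 4 simple keratins. Krt8 stood at 937 CPM in 24 control cells and 892 CPM in 47 cKO cells, Krt18 at 457 and 465 CPM, Krt19 at 407 and 392 CPM and Krt7 at 100.3 and 112 CPM. Each interval of these ratios spanned 1, the widest that of Krt7 at 0.809 to 1.58. With each cell weighted equally Krt19 was higher in cKO, at 267 and 409 CPM as a mean over cells, at cell medians of 125 and 345 CPM, and at 250 and 426 CPM after thinning, on 6 and 20 UMIs. Krt7 stood at 112 and 165 CPM as a mean over cells, and had 2 and 7 UMIs after thinning. Stromal markers summed to 9227 and 11098 CPM in this part and leukocyte markers to 271 and 58.3 CPM. Smooth muscle markers summed to 230 and 199 CPM and endothelial markers to 34.1 and 34.4 CPM. The part of these in the keratin values was not tested. The keratins summed to 1954 CPM in control and 1917 CPM in cKO, below the adhesion-gene part in both libraries. Of 6 members tested there, 0 were 2-fold higher in cKO, where 10.6% of genes were, and 1, Krt15, was 2-fold lower, where 5.14% were. That call was lost without the richest cell of each library (log2 ratio -0.90) and as a mean over cells (-0.36). In the neither part the sum was 216 CPM (56 UMIs) in control and 24.1 CPM (10 UMIs) in cKO. Those cKO cells included 3 with Prox1, a factor of lymphatic endothelium, and 24 of 29 with the stromal proteoglycan gene Dcn.

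**Figure D2:**
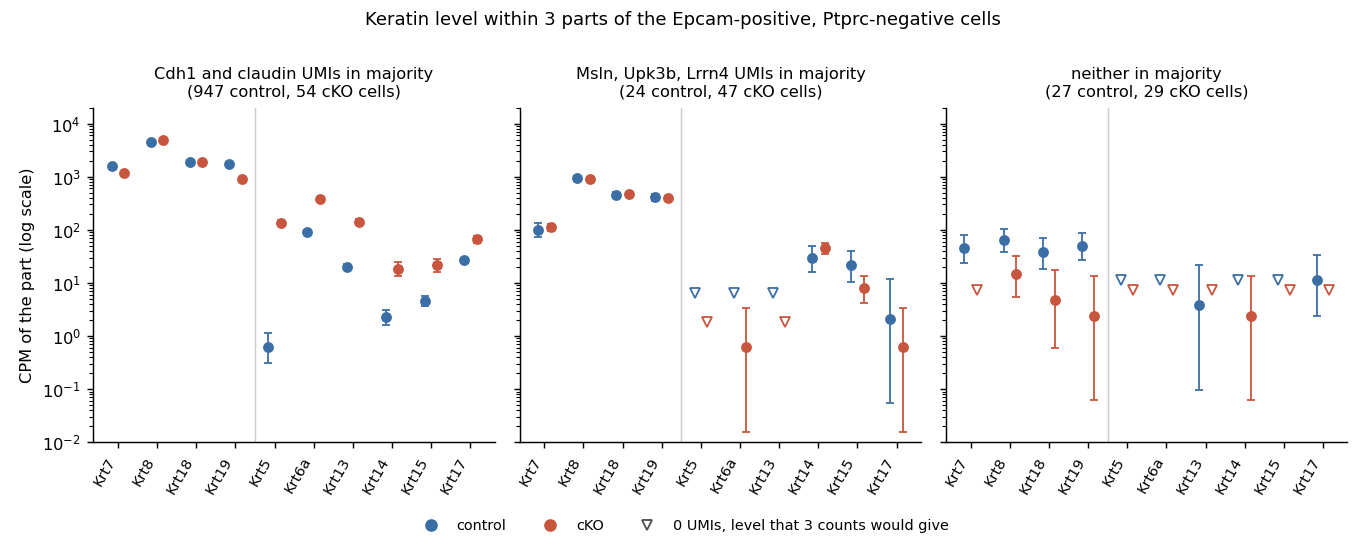
The same keratins in CPM (log axis) in 3 parts of the Epcam-positive, Ptprc-negative cells, with 95% Poisson intervals, 1 library per point and triangles for 0 UMIs. In the adhesion-gene panel Krt19 stands at 1736 CPM in control (blue) and 901 CPM in cKO (red), and in the mesothelial-gene panel at 407 and 392 CPM.

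Over the whole Epcam-positive gate, 5 of 10 members were at least 2-fold higher in cKO, where 30.7% of all genes tested were. In the same gate 2 (Krt7 and Krt19) were at least 2-fold lower, where 11.5% were. These counts depended on the setting. After thinning, 1 of 7 members tested in this gate was higher (Krt13) and 3 were lower (Krt7, Krt19 and Krt17). The thinned call of Krt17 rested on 35 and 1 UMIs. Under TMM scaling of the whole gate Krt6a was no longer 2-fold higher, and Krt18 was 2-fold lower too. In the adhesion-gene part, 6 members were higher against 23.2% of genes, and 0 were lower against 13.3%. Krt5, Krt6a, Krt13 and Krt14 were also 2-fold higher there as a mean over cells, without the richest cell of each library, under TMM scaling and once centred on all genes. After thinning only Krt6a (43 and 10 UMIs) and Krt13 (13 and 6) passed both the fold and the minimum of 10 UMIs, since Krt5 kept 1 and 7 UMIs and Krt14 2 and 1. Krt15 was not 2-fold higher without the richest cells (log2 ratio 0.62), and kept 7 and 0 UMIs after thinning. Krt17 was not as a mean over cells (0.79), under TMM or once centred, and its thinned ratio of -0.88 rested on 32 and 1 UMIs. Krt19 was 2-fold lower under TMM and once centred (-1.26). The members counted as higher were the 6 stratified keratins, or 5 of them without Krt17 in the whole gate, and each was detected in 2 to 23 cKO cells of the gate.

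Simple keratins shared cells. Control cells with all 4 of them numbered 772 of 998 (77.4%), and cKO cells 73 of 130 (56.2%). In the adhesion-gene part the shares were 80.6% and 81.5%. Krt8 and Krt18 were found together in 886 control cells (88.8%, 86.7 to 90.7) and 88 cKO cells (67.7%, 58.9 to 75.6) of the gate. In the adhesion-gene part they shared 91.3% of control cells (89.4 to 93.1) and 90.7% of cKO cells (79.7 to 96.9), and after thinning to 1000 UMIs per cell 62.2% and 59.3%. Among its cells of at least 10000 UMIs the pair was in 356 of 365 control cells (97.5%) and 39 of 40 cKO cells (97.5%). At least 1 chain of each type was present in 96.8% of control and 96.3% of cKO cells of that part. Type II chains gave 62.3% of its keratin UMIs in control and 68.7% in cKO.

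Levels of the simple keratins also moved together from cell to cell. Over the 947 control cells of the adhesion-gene part, Pearson's r of log2(UMIs per 10000 + 1) was 0.55 for Krt8 with Krt18 and 0.45 to 0.49 for the other pairs of simple keratins. In the 54 cKO cells it was 0.64 for Krt8 with Krt18 and 0.21 for Krt18 with Krt19. Cells of 1 library share their depth range and preparation, so these values are descriptions.

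The sequences before the start sites of Krt8 and Krt18 are shown because these neighbours form the known pair of simple epithelium and were the most widely shared pair of 1 type I and 1 type II chain among Epcam-positive cells of both libraries. Promoter entries of RefSeq (GRCm38.p6) were found for 6 of the 10 members, and 4 had bases outside the gene in both annotations. Capitals mark matches on either strand, none of which overlapped another. The motif searched for the AP-1 transcription factor was TGANTCA. The GC box bound by Sp1 and related factors was searched as GGGCGG, which 32.7% of all promoters held over 250 bases. The core promoter element known as the TATA box was searched as TATAAA, held by 12.4%. The last motif, a core recognised by nuclear receptors such as the oestrogen receptor, was AGGTCA. The windows are chr15:102004483-102004592 on the minus strand and chr15:102027966-102028179 on the plus strand.
Krt8: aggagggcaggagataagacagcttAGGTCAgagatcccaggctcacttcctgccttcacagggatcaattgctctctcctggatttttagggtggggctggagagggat
Krt18: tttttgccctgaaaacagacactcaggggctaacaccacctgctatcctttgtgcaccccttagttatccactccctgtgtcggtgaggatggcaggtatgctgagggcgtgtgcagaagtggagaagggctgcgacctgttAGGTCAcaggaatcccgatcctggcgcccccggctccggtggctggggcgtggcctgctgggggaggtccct
Each held 1 match to AGGTCA, starting 225 bases before the RefSeq start site of Krt8 and 108 before that of Krt18, and no match to the other motifs. The windows kept 110 bases for Krt8 and 214 for Krt18, and the bases nearest the start site were cut from both. A TATA box or GC box in the cut bases could not be found. Their absence here is therefore not comparable with the shares over 250 bases. A match is a description, not a binding site. The share of all promoters with AGGTCA in a window of the same length was 6.36% for that of Krt8 and 12.3% for that of Krt18.

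**Figure D3:**
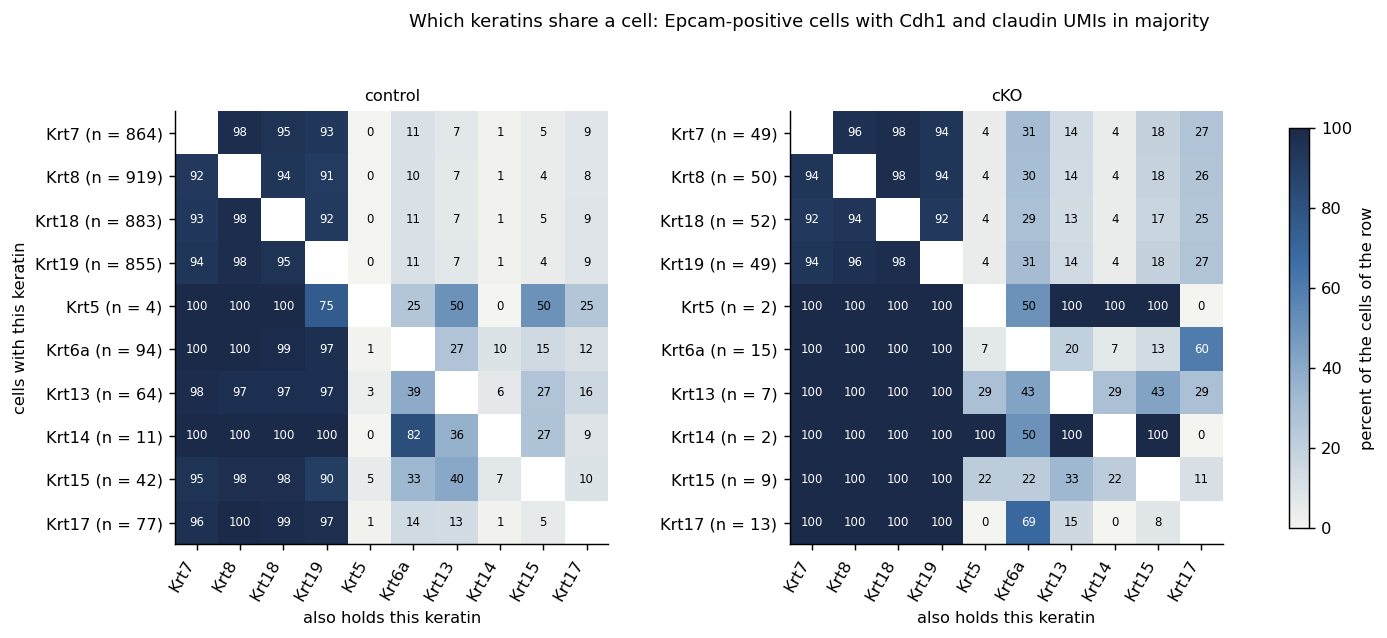
Share of cells holding the keratin of the row (number in brackets) that also held the keratin of the column, in percent, among Epcam-positive cells with an adhesion-gene majority, control left and cKO right. Among the simple keratins each share in control lies between 91.4 and 98.4%.

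Each Epcam-positive cell with a stratified keratin also held a simple keratin. At least 1 of the 6 was detected in 225 of 998 control cells (22.5%, 19.99 to 25.3) and 53 of 130 cKO cells (40.8%, 32.2 to 49.7) of the Epcam-positive gate. Of these, 200 and 47 held all 4 simple keratins. Detection followed depth: the median of control cells with a stratified keratin was 24170 UMIs, that of the others 5255. After thinning to 1000 UMIs the shares were 7.07% (5.55 to 8.85) and 8.46% (4.30 to 14.6). In the adhesion-gene part they were 7.12% (5.56 to 8.95) and 16.7% (7.92 to 29.3) after thinning, against 214 of 947 (22.6%) and 27 of 54 cells before.

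Krt5, the type II chain of basal cells, gave 11 UMIs in 4 control cells and 328 UMIs in 2 cKO cells of the gate, or 0.604 and 73.9 CPM. The ratio was 122 (67.5 to 248), and 1 cell held 82.9% of the cKO UMIs. That cell, of 103794 UMIs in all, held 272 UMIs of Krt5, 264 of Krt13, 32 of Krt14 and 7 of Krt15. The other, of 18381 UMIs, held 56, 71, 12 and 36 UMIs of these genes. Both also held Krt7, Krt8, Krt18 and Krt19, and neither a UMI of Trp63, the basal cell transcription factor. Of the basal markers Itgb4 and Col17a1 the first held 12 UMIs and 1, and the second 1 and 0. They held 6 and 3 UMIs of the desmosomal cadherin gene Dsg3. Itgb4 was found in cells without Krt5 too, such as a cKO cell with 32 UMIs of it. In control, the cell with most Krt5 held 6 UMIs of it with 38 of Krt13 and 9 of Krt15 but 0 of Krt14, among 9646 UMIs.

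Krt13, the type I chain of internal stratified epithelia such as vagina and oesophagus, gave 354 UMIs in 65 control cells and 342 UMIs in 7 cKO cells, or 19.4 and 77.1 CPM. The first of the Krt5-positive cells alone held 77.2% of the cKO UMIs. Without the richest cell of each library the log2 ratio of Krt13 went from 1.99 to 0.21. Krt15, a type I chain of basal and progenitor cells, gave 91 UMIs in 46 cells and 64 UMIs in 18 cells, with 56.3% of the cKO UMIs in 1 cell. Its log2 ratio of 1.53 became 0.51 without the richest cells and -1.16 after thinning to 1000 UMIs, on 8 and 0 UMIs.

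The windows before the start sites of Krt5 and Krt13, which shared both cKO cells, are shown with the same marks. They lie at chr15:101712906-101713155 and chr11:100121567-100121816, both on the minus strand.
Krt5: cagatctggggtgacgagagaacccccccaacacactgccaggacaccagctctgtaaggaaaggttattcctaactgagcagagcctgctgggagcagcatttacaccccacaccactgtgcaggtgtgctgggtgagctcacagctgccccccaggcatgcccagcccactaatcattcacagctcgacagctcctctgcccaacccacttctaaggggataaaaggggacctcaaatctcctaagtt
Krt13: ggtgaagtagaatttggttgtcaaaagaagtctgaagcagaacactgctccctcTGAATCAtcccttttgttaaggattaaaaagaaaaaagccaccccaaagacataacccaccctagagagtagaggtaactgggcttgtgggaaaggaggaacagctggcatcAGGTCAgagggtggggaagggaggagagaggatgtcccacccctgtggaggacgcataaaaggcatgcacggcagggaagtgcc
The window of Krt13 held 1 match to AP-1, starting 196 bases before the start, and 1 to AGGTCA, 84 bases before it. AP-1 was matched in 6.75% and AGGTCA in 14.02% of all promoters over 250 bases. That of Krt5 held none of the 4 motifs.

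**Figure D4:**
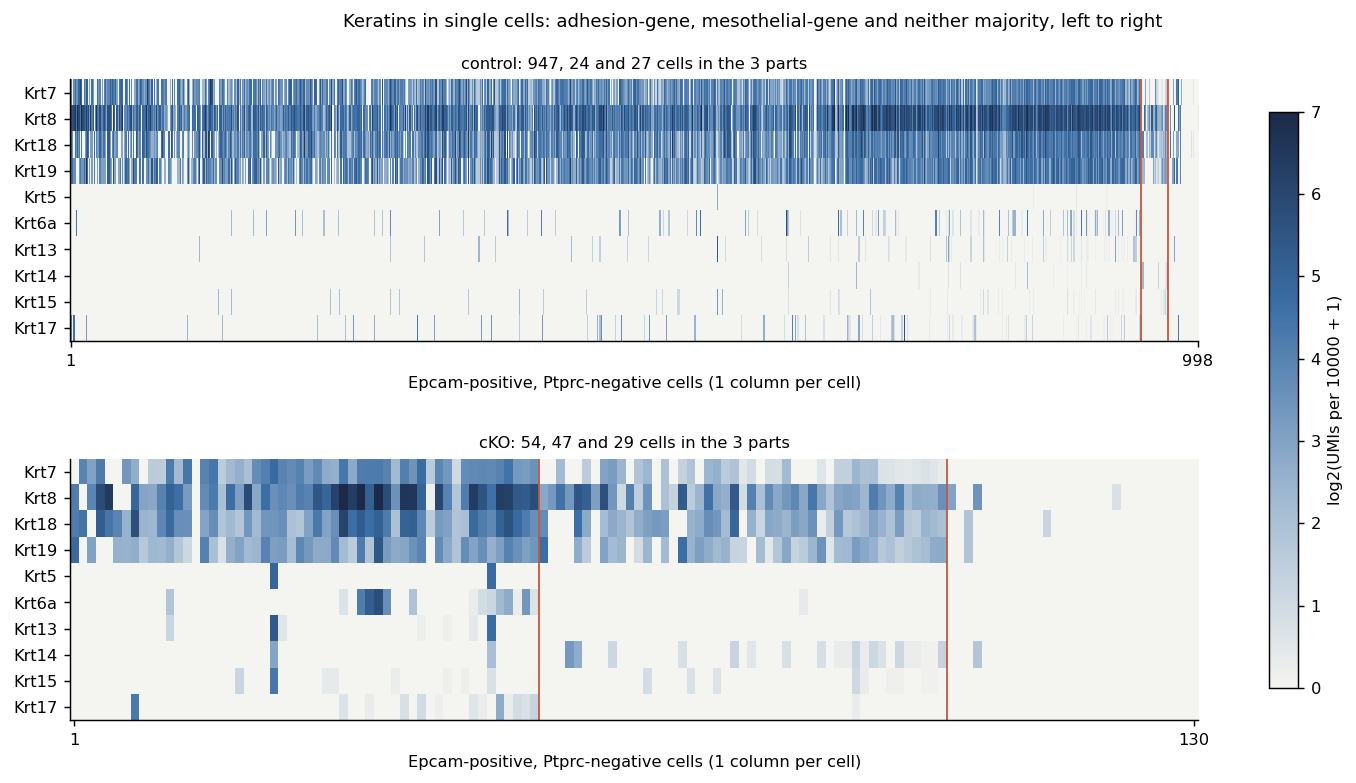
Each column is 1 Epcam-positive, Ptprc-negative cell and each row 1 keratin, coloured by log2(UMIs per 10000 + 1); cells run from the adhesion-gene part through the mesothelial-gene part to the neither part (red lines), ordered by depth within each. Of the 23 cKO cells with Krt14, 20 lie in the middle part, and Krt5 and Krt13 share 2 cKO cells in the first.

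Krt6a, a type II chain induced in stress, gave 1619 UMIs in 94 control cells and 910 UMIs in 16 cKO cells. This was 88.9 and 205 CPM over the gate, and 92.6 and 380 CPM in the adhesion-gene part, where 94 of 947 control cells (9.93%) and 15 of 54 cKO cells (27.8%) held it. The log2 ratio in the gate was 1.21, and it was 0.76 under TMM scaling and 0.92 without the richest cells. Krt17, a type I chain induced together with Krt6a in skin, gave 473 UMIs in 79 control cells and 159 UMIs in 14 cKO cells, or 26.0 and 35.8 CPM. Its log2 ratio of 0.46 turned to -0.49 as a mean over cells and -1.64 after thinning, on 35 and 1 UMIs. Of cells with Krt6a, 11 of 94 in control (11.7%) and 9 of 16 in cKO (56.3%) held Krt17, against 7.52% and 4.39% of cells without Krt6a. The type I chain Krt16 was in 12 of the 94 and 6 of the 16. Krt6b, the near-identical copy, was in 26 of the 94 and 11 of the 16, and the counting could have split reads between the copies. Dsg3, the desmosomal cadherin of stratified epithelium, was in 15 (16.0%) and 11 (68.8%), against 1.55% and 11.4% of cells without Krt6a. Of the 16 cKO cells with Krt6a, 15 lay in the adhesion-gene part, whereas cKO cells without it came from all parts of the gate. The cKO cells were also deeper, as given above. The part of this mixture and of depth in these shares was not tested.

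Krt14, the type I partner of Krt5, gave 54 UMIs in 16 control cells and 119 UMIs in 23 cKO cells of the gate, or 2.97 and 26.8 CPM, a log2 ratio of 3.18 (2.70 to 3.67). Most of the cKO cells with it lay outside the adhesion-gene part. The mesothelial-gene part held 20 of the 23 cells and 74 of the 119 UMIs, at 45.4 CPM (35.7 to 57.0), and in control 5 of the 16 cells and 14 of the 54 UMIs, at 29.9 CPM (16.3 to 50.1). Within that part the ratio was 1.52 (0.852 to 2.92), so the libraries did not differ beyond counting error. In Msln-positive cells without Epcam, by contrast, Krt14 had 2 UMIs in 1 of 28 control cells, or 7.89 CPM (0.955 to 28.5), and 0 UMIs in 38 cKO cells, which allows up to 9.15 CPM. The median depth of those cells was 4487.5 UMIs in control and 6420 in cKO, against 14959 and 22753 in the mesothelial-gene part. Krt5, Krt13 and Trp63 had 0 UMIs in that part in both libraries. The 22 UMIs of the richest cell came with 31 UMIs of Msln and 50 of Upk3b. Depth went with detection here too, with medians of 43862 UMIs in cKO cells with Krt14 and 14863 in those without. In the adhesion-gene part, the 2 cKO cells with Krt14 were the 2 with Krt5, whereas 0 of the 11 control cells with Krt14 held Krt5.

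Msln-positive cells without Epcam and Ptprc numbered 28 in control and 38 in cKO. The mesothelial gene Upk3b stood at 592 and 937 CPM in them and the adhesion genes gave 1 UMI of Cdh1, 2 of Cldn4 and 3 of Cldn7 in control and 1 of Cdh1 in cKO, with Cldn3 at 0 in both. The 8 epithelial markers summed to 197 and 171 CPM, of which Spint2, a protease inhibitor gene, gave 169.6 and 168 CPM, while the summed CPM of the 7 stromal markers was 11298 and 13631. The 5 smooth muscle markers summed to 229 and 500.4 CPM and the 5 endothelial markers to 39.4 and 507 CPM, with Cdh5, Prox1 and Lyve1 at 0 in control. The 8 leukocyte markers summed to 209 and 36.6 CPM. Cells without any simple keratin numbered 0 of 28 in control and 7 of 38 in cKO. The part of these other cells in the keratin values was not tested. Krt8 stood at 528 CPM in control and 342 CPM in cKO, Krt18 at 429.8 and 320.4, Krt19 at 485 and 281 and Krt7 at 126 and 229. Krt8, Krt18 and Krt19 were thus lower and Krt7 higher in cKO over all these cells. A further setting left out cells with UMIs of both Col1a1 and Dcn, or of Cd52, called here cells holding another gate's genes. These are not the gate genes, and the cells richest in Krt8 held Dcn too, at 119 UMIs in control and 285 in cKO. The setting left 12 control and 11 cKO cells, and whether it removed mesothelial cells was not tested. The log2 ratios of Krt7 (-1.50, on 7 and 1 UMIs), Krt8 (0.43, on 29 and 22) and Krt18 (0.03, on 9 and 5) then had the opposite sign. In the whole gate 0 members were 2-fold lower, where 6.12% of genes were, and 1 of 5 tested, Krt15, was 2-fold higher, where 17.1% were. Krt15 rested on 3 UMIs in 3 cells and 16 UMIs in 9 cells, a ratio of 4.13 (1.18 to 22.1). In the Epcam-positive mesothelial-gene part the order was reversed, at 21.3 and 7.98 CPM of Krt15. Krt8 and Krt18 shared 13 of 28 control cells (46.4%, 27.5 to 66.1) and 20 of 38 cKO cells (52.6%, 35.8 to 69.0), and all 4 simple keratins 8 and 15 cells. Krt8 with Krt19 shared more, 17 and 22 cells. Krt5, Krt6a and Krt13 had 0 UMIs, which allows a level of up to 11.8 CPM in control and 9.15 CPM in cKO. Krt14 is given above, and Krt17 had 0 UMIs in control and 1 in cKO.

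Pdgfra-positive stromal cells without Epcam, Msln and Ptprc numbered 633 in control and 1485 in cKO. Their 10 keratins summed to 24.8 CPM in control and 7.83 CPM in cKO. Ptprc-positive leukocytes, which should lack keratins, held 52.5 and 14.9 CPM, and barcodes with at most 100 UMIs, which stand for free RNA, held 3290 and 474 CPM. A simple keratin was detected in 16.7% of stromal cells in control and 4.51% in cKO, beside 14.3% and 3.78% of leukocytes, at median depths of 11899 and 15614 UMIs in stroma and 6431 and 5574 in leukocytes. The share was higher in stroma than in leukocytes and the CPM lower, so no order was read from the shares. Of 4 tested members, 3 (Krt7, Krt8 and Krt19) were at least 2-fold lower in cKO stroma, where 8.61% of genes were, and 0 were higher, where 7.34% were. In leukocytes all 5 tested members (the simple keratins and Krt14) were at least 2-fold lower in cKO, where 7.1% of genes were, and 0 were higher, where 12.5% were. The call of Krt14 rested on 19 control UMIs, 18 of them in 1 cell that also held 7 UMIs of Msln. The summed keratins of leukocytes and of free RNA, given above, were lower in cKO too, and the part of free RNA in the stromal values was not tested.

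Krt8 and Krt18 shared 8 of 633 control cells (1.26%) and 3 of 1485 cKO cells (0.202%), beside 1.66% and 0.407% of leukocytes. A cKO stromal cell of 30127 UMIs was the exception, with 45 UMIs of Krt8 and 42 of Krt18 and 0 of Krt7 and Krt19. Of the stromal UMIs in cKO, Krt8 had 90 and Krt18 had 84 in all. The same cell held 7 UMIs of Pdgfra, 11 of the muscle gene Des, 1 of Cdh1 and 0 of Cldn3, Cldn4 and Cldn7. The control cell of this gate richest in Krt7, of 3129 UMIs, had Krt7, Krt8, Krt18 and Krt19 together with 12 UMIs of Cldn4. It held 1 UMI of Pdgfra and 0 of Dcn. The control cell richest in Krt8 and Krt18, of 10246 UMIs, held 14 and 9 of them, with 6 of Pdgfra, 17 of Dcn and 5 of Cldn4.

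The gates missed some keratin-rich cells. Of cells without Epcam, Ptprc, Msln and Pdgfra, 194 of 1219 in control and 4 of 1523 in cKO held all 4 simple keratins, at median depths of 2851 and 4516.5 UMIs, and 188 and 2 of them also held an adhesion gene. All cells without those gate genes had 3.32% of keratin UMIs of control cells and 1.77% of those of cKO cells. Cells with both Epcam and Ptprc, 50 in control and 53 in cKO, held 4.0% of keratin UMIs of control cells and 17.1% of those of cKO cells. In cKO, 1 such cell of 279351 UMIs had 1714 UMIs of Krt8, 207 of Krt6a and 1 of Ptprc. Counting cells with more Epcam than Ptprc UMIs instead, a setting chosen after seeing the data, moved the log2 ratio of Krt8 from -0.52 to -0.40 and that of Krt6a from 1.21 to 1.47. Over all cells of a library, Krt8 stood at 2203 CPM in control but 319 CPM in cKO. In such a sum, fewer epithelial cells and less RNA per cell cannot be told apart.

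Other genes of the system were described from lists. Of 43 other keratins, 20 had at least 10 UMIs in the Epcam-positive gate, and 9 of them were 2-fold higher and 4 lower in cKO, where 30.7% and 11.5% of all genes were. In the adhesion-gene part 13 were higher and 1, Krt39, was lower, beside 23.2% and 13.3% of all genes. The median log2 ratio of the 20 was 1.36 there, beside 0.31 over all genes. The keratins Krt12, from 18.6 to 101 CPM, and Krt84, from 13.7 to 52.2 CPM, were among the higher ones. Krt80, Krt20 and Krt25 were within 2-fold in that part. Of 25 genes for desmosomes, hemidesmosomes, plakins, basal cells and vimentin, 21 were tested in the adhesion-gene part, and 2 were higher and 3 lower, with a median log2 ratio of -0.02. Beside the 23.2% and 13.3% of all genes, the count of lower ones is near the background. Dsg3 was higher, from 3.89 to 65.2 CPM, as was the plakophilin gene Pkp1, with 10 and 7 UMIs. Plec and Eppk1, cytolinkers that bind keratin filaments, were lower, from 836 to 418 CPM and from 254 to 122 CPM, as was Lama3, a laminin chain, from 182 to 51.0 CPM. Dsp, the plakin that ties keratins to desmosomes, stood at 271 and 279 CPM. Vim, the filament of mesenchyme, was at 60.3 CPM in control and 448 CPM in cKO over the whole gate but at 18.1 and 32.2 CPM in the adhesion-gene part.

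The 3 genes whose levels followed each keratin most closely were found over the 998 control Epcam-positive cells. For Krt8 they were Actb (r = 0.63), Dstn (0.61) and Actg1 (0.61), which encode actins and an actin-severing protein. For Krt18 they were Actb, Actn4 and Tagln2 (0.49 to 0.50), for Krt7 Dstn, Actn4 and Myh9 (0.50 to 0.52) and for Krt19 Anxa1, Tagln2 and Actn4 (0.43 to 0.48). In the 130 cKO cells r was 0.54, 0.67 and 0.33 for the genes of Krt8 in the same order, 0.45 to 0.59 for those of Krt18, 0.43 to 0.67 for those of Krt7 and 0.42 to 0.54 for those of Krt19. These cKO cells include 47 of the mesothelial-gene part and 29 of the neither part. The part of this mixture in r was not tested. Krt6a went with Dmkn (0.43 in control, 0.41 in cKO), a gene of differentiating epidermis, with Mal (0.41, 0.53) and with Npnt (0.36, 0.24). Krt13 went with Sprr2d (0.33 in control, -0.03 in cKO) and Tmprss11b (0.32, 0.76), although few cKO cells held Krt13, as given above. No gene reached 0.3 for Krt15 or Krt17, and Krt5 and Krt14 had under 30 positive cells.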

How the data were processed

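The deposited files held raw UMI counts per gene and barcode, not normalized, and per the file headers came from Cell Ranger 4, whereas the submitters' processing notes name Cell Ranger 6.1.1 and mm10. The annotation and aligner settings are not given in the sources used here. The libraries held 45035801 and 57145553 UMIs. Gates were set on 1 UMI or more of the gate gene. The setting with other gates' genes left out dropped Epcam- and Msln-positive cells with both Col1a1 and Dcn, or with Cd52. From Pdgfra-positive cells it dropped those with Cdh1 or Cd52. These are markers and not the gate genes themselves. UMIs were summed per gate and divided by the gate's total (CPM). Intervals were exact Poisson, Clopper-Pearson or conditional binomial at 95%. A gene was counted as 2-fold higher or lower if it had at least 10 UMIs over both libraries. Cells were thinned to 1000 UMIs to compare shares. Doublets were kept; those over a Scrublet score of 0.25 (42 control, 60 cKO cells) were removed as an alternative. All 10 members were described in each gate; other keratins and linker genes were named from lists, at most 8 by UMIs at 50 or more, plus Trp63 and Vim; genes like a member were the 3 with the highest r of at least 0.3, among genes detected in at least 5% of cells. Krt16, Krt39, Krt76, Krt83, Krt86, Dsg3, Lama3, Pkp1 and the genes beside single cells were named after their values were seen. The members and lists were chosen with earlier results of these data known. The calculations were tested on simulated data. Tools were Python 3.11.15, numpy 2.4.6, scipy 1.17.1, scanpy 1.11.5 and edgeR 4.0.16.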

Additional observations from a re-analysis of the deposited data

Results flagged for a closer look

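Some keratins differed between the libraries in opposite directions in different cell gates, with intervals that did not include 0 on either side. The difference between gates was not tested, since each group was 1 library. Values are log2 ratios of cKO over control. Krt7 stood at 0.86 in Msln-positive cells (-1.50 without cells holding another gate's genes, on 7 and 1 UMIs), against -1.15 in Epcam-positive cells, -0.41 in their adhesion-gene part, -4.59 in Pdgfra-positive cells and -2.35 in Ptprc-positive cells. Krt8 stood at 0.15 in the adhesion-gene part (-0.16 once centred on all genes), against -0.52 in all Epcam-positive cells, -0.63 in Msln-positive (0.43 without cells holding another gate's genes), -1.62 in Pdgfra-positive and -1.80 in Ptprc-positive cells. Krt14 stood at 3.18 in Epcam-positive cells and 3.01 in their adhesion-gene part (1.87 without the richest cells, with Krt14 in 2 cKO cells). Against these it stood at -5.53 in Ptprc-positive cells, where 18 of the 19 control UMIs came from 1 cell that also held 7 UMIs of Msln. Krt15 stood at 1.53 in Epcam-positive cells (-1.16 thinned, on 8 and 0 UMIs), 2.20 in their adhesion-gene part (0.62 without the richest cells) and 2.05 in Msln-positive cells (-0.16 with Epcam allowed), against -1.42 in the Epcam-positive mesothelial-gene part (-0.36 as a mean over cells, -0.90 without the richest cells).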

How the results depend on the processing

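No paired analysis was possible because each group was 1 library and the labels carry no replicate numbers. The 5 members at least 2-fold higher in Epcam-positive cells became 2 (Krt5 and Krt14) without the richest cell of each library and 1 (Krt13) after thinning to 1000 UMIs, where Krt5 kept 1 and 7 UMIs and Krt14 2 and 4, under the minimum of 10, at log2 ratios of 5.25 and 3.78. The 2 lower members became 1 with at least 2 UMIs of the gate gene, and 0 with cells holding another gate's genes left out or, chosen after seeing the data, in the adhesion-gene part. They became 3 (Krt7, Krt19 and Krt17) after thinning. Under TMM scaling, which shifts all genes of the gate by -0.45, Krt18 was 2-fold lower too. The share of control Epcam-positive cells with Krt8 and Krt18, 88.8%, was 92.1% with at least 1000 genes, 94.1% with 2 gate UMIs, 59.8% thinned and 91.3% in the adhesion-gene part. That of cKO, 67.7%, was 88.6% with 2 gate UMIs, 77.8% with other gates' genes left out, 31.5% thinned and 90.7% in the adhesion-gene part. The share with a stratified keratin was 26.9% in control and 55.7% in cKO with 2 gate UMIs, 7.07% and 8.46% thinned, and 50% in cKO in the adhesion-gene part. In Msln-positive cells the share with Krt8 and Krt18 was 16.7% and 27.3% with other gates' genes left out and 11.1% and 8.33% thinned. Summed keratins of Pdgfra-positive cells were 20.1 CPM in control with 2 gate UMIs, 17.0 and 4.57 CPM without other gates' genes, and 48.2 and 10.9 CPM thinned. Of 251 log2 ratios under alternatives of members with at least 10 UMIs in a gate, 9 changed sign. In Epcam-positive cells these were Krt8 (0.04 with other gates' genes left out, 0.15 in the adhesion-gene part), Krt15 (-1.16 thinned) and Krt17 (-1.64 thinned, -0.49 as a mean over cells). In Msln-positive cells these were Krt7 (-1.50), Krt8 (0.43) and Krt18 (0.03) with other gates' genes left out, and Krt15 (-0.16) with Epcam allowed, a setting also chosen after seeing the data. The cause was not tested. With 1 library per group, the spread between animals is unknown.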

Other observations

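Some keratins other than the 10 gave UMIs in stromal cells. In Pdgfra-positive cells Krt76 gave 2 UMIs in 2 control cells and 135 UMIs in 73 cKO cells, Krt83 gave 6 UMIs in 3 cells and 109 UMIs in 51 cells, and Krt86 gave 10 UMIs in 5 cells and 152 UMIs in 95 cells. These were 0.239 and 5.18 CPM, 0.716 and 4.18 CPM, and 1.19 and 5.84 CPM. In Ptprc-positive leukocytes Krt76 stood at 0 and 1.09 CPM, Krt83 at 15.1 and 14.6 CPM, above its stromal level in both libraries, and Krt86 at 0.498 and 0.818 CPM. In free RNA Krt76 stood at 0.388 CPM (1 UMI) and 3.5 CPM (8 UMIs), Krt83 at 1.55 and 6.56 CPM (4 and 15 UMIs) and Krt86 at 1.16 and 0.875 CPM (3 and 2 UMIs). The stromal levels of Krt83 were below the free RNA in both libraries, and the part of free RNA in these values was not tested. Of 9 other keratins with at least 10 UMIs in the Pdgfra-positive gate, 7 were 2-fold higher and 1 lower in cKO, where 7.34% and 8.61% of all genes were. In leukocytes 1 of 6 was higher and 0 lower, where 12.5% and 7.1% of all genes were. Krt83 and Krt86 are close copies among the hair keratins, and Krt76 is known from oral epithelium. The simple keratins of the same cells were lower in cKO, as given above.

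A further cKO cell outside the gates, of 1427 UMIs and without Epcam, held 9 UMIs of Krt13, 3 of Krt5 and 2 of Krt14, with 3 of Krt7, 1 each of Krt18, Krt19 and Cldn4, and 0 of Krt8 and Krt15.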
